A study of Mus musculus with 12 samples.

Results

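The endothelium of the liver sinusoid was described through 34 genes, read from the raw count table of liver RNA. They were chosen by name from what they are known to mark or do, but with earlier results of these data known. All 34 were found among the 55401 genes of the table, and all 34 were among the 13205 genes with enough counts to be tested. They comprised 6 markers of sinusoidal endothelial cells, 3 ligands that these cells send to hepatocytes, 9 genes of endothelium in general, 3 markers of capillarization, 5 angiogenic ligands and 8 angiogenic receptors. The livers came from 12 female mice on a C57BL/6J background at 15 weeks of age, 6 iTgMir483 and 6 Control littermates. iTgMir483 mice carry Mir483, a microRNA gene of the Igf2 locus, as a doxycycline-repressible (Tet-off) transgene at the Rosa26 locus. Doxycycline was given to the dams through pregnancy and then withdrawn, which allowed expression after birth. CMV-Cre, which acts in all tissues, had removed the selection cassette, and by the cross the study describes, transgenic males with CMV-Cre homozygous females, the controls would carry Cre too. The labels name their genotype only as control. Neither the transgene nor Cre was restricted to endothelium, so these livers are no model of an endothelial change in particular.

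Sinusoidal endothelial cells line the blood channels between plates of hepatocytes. Unlike other capillary endothelium they have open pores and almost no basement membrane, and they take up waste molecules through scavenger receptors such as the stabilins. When they lose these features and gain those of common capillaries, with a basement membrane and surface proteins such as CD34, the process is called capillarization. Vascular endothelial growth factor (VEGF), angiopoietins with their receptor TIE2, and Notch ligands control how vessels sprout and mature, while WNT2, WNT9B and BMP2 from the endothelium act on neighbouring hepatocytes, on zonation and on iron handling.

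Mir483 gives 2 mature microRNAs, and their sequences are shown because a match to the seed is what a direct target would carry. They are written 5′ to 3′ from RefSeq (GRCm38.p6, minus strand of chromosome 7, within Igf2), with the seed, bases 2 to 8, in capitals.
miR-483-3p (chr7:142654932-142654952): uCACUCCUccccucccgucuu
miR-483-5p (chr7:142654968-142654989): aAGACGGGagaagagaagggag
The DNA letters opposite the seeds are AGGAGTG for miR-483-3p and CCCGTCT for miR-483-5p. These were searched on the transcript strand of the longest annotated 3′ untranslated region (UTR) of each gene (GENCODE M21, GRCm38). Of the 34 genes, 5 (14.7%) held the miR-483-3p letters and 0 held those of miR-483-5p, against 1522 (12.6%) and 394 (3.26%) of the 12098 tested genes with a 3′ UTR. The share with the miR-483-3p letters was thus close to that of all genes.

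The 5 matches are shown with 11 bases on either side, with the site in capitals and read on the strand of the gene. Each lies in the last exon of its transcript, and for Vwf this is a short transcript inside the gene that ends at its 10th exon, not the full-length one.
Cdh5 (site at chr8:104143078-104143084, plus strand): cctgatttccaAGGAGTGacaccagactc
Erg (site at chr16:95360713-95360719, minus strand): agtgcctcgtgAGGAGTGgaaacggttgg
Vwf (site at chr6:125592158-125592164, plus strand): ggaacaaataaAGGAGTGtccccaagcct
Flt4 (site at chr11:49651611-49651617, plus strand): agtcacagaggAGGAGTGgaggaggggga
Tek (site at chr4:94874747-94874753, plus strand): actaggaatttAGGAGTGatgtgtgacat
In Cdh5 and Tek an A follows the site. None of these 5 genes passed the test described next. Their log2 fold changes were 0.43 for Cdh5, -0.12 for Erg, 0.40 for Vwf, 0.24 for Flt4 and -0.07 for Tek.

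Levels are CPM, the counts of a gene scaled by TMM to a common library total, and a log2 fold change is iTgMir483 minus Control from edgeR's quasi-likelihood test, with p adjusted by Benjamini-Hochberg over all 13205 genes. A gene was counted as changed at an adjusted p under 0.05 and a fold over 1.5. Control libraries held 12244123 to 30431286 counts and iTgMir483 libraries 12415140 to 15846175. Together the 34 genes made up 0.0892% to 0.106% of a control library and 0.101% to 0.119% of an iTgMir483 library. Mir483 had 0 counts in all 6 control libraries and from 318 to 761 in the 6 iTgMir483 libraries, in accord with the labels. The replicate 1 libraries of both groups stood apart across all genes, with a correlation of 0.49 between their deviations from the group means. Genes of the 34 whose sign or test result moved without them are named. In whole liver, fewer endothelial cells and less RNA per endothelial cell cannot be told apart.

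Of the 34 genes, 2 were changed, Angpt2 and Dll4, and both were higher in iTgMir483 livers. That is 5.88% of them, against 11.1% of all genes tested that were changed in either direction and 8.41% that were changed and higher. A further 3, Tie1, Eng and Pecam1, passed the adjusted p with a fold under 1.5 and were also higher. The 5 genes that passed the adjusted p make up 14.7% of the list, against 18.6% of all genes by the same measure. None of the 34 was lower by either measure, while 2.73% of all genes were changed and lower and 7.33% were lower by the adjusted p alone. The 5 higher genes by that measure compare with 11.3% of all genes. The other 29 did not pass the test. By sign alone, 20 log2 fold changes were above 0 and 14 below, where 50.8% of all genes were above 0, with a median of 0.07 beside 0.01 for all genes tested. For 20 of the 34 the 95% interval of the difference lay inside 1.5-fold in both directions.

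**Figure D1:**
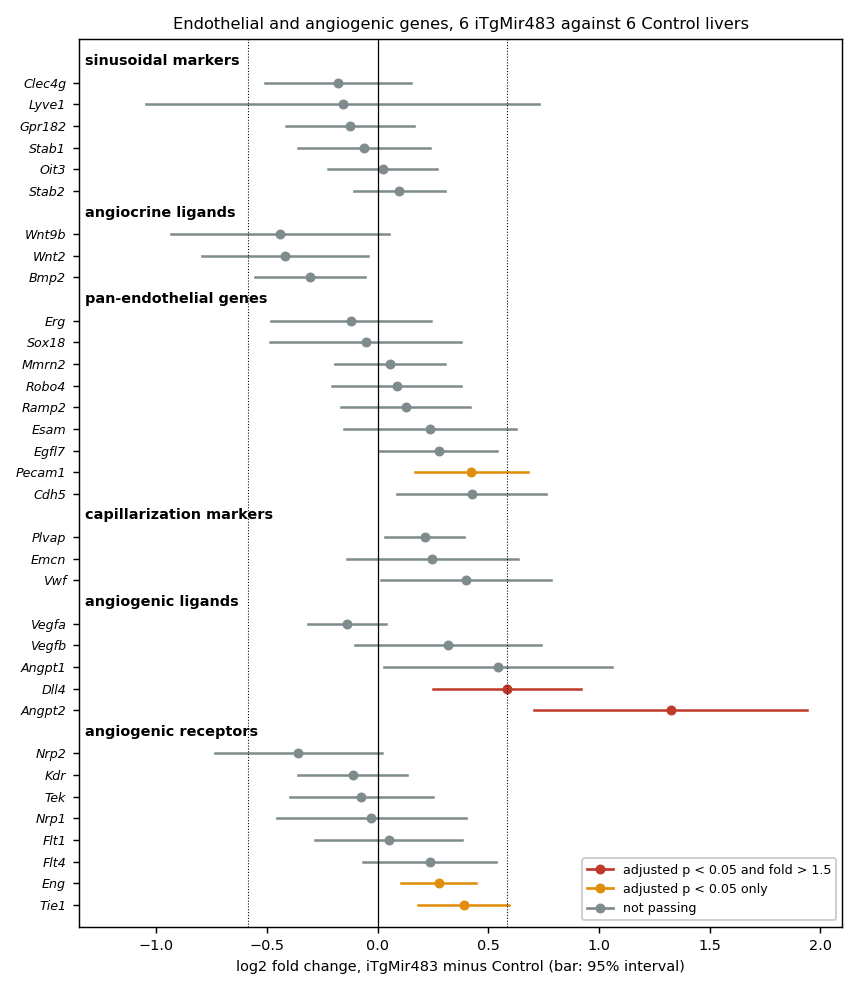
Log2 fold change of each of the 34 genes (iTgMir483 minus Control, x axis), with bars for the 95% interval and dotted lines at a fold of 1.5 in either direction, grouped by role. Angpt2 (1.32) and Dll4 (0.59) lie furthest right among the ligands, the 3 angiocrine ligands lie left of 0, and 5 of the 6 sinusoidal markers have intervals inside the dotted lines.

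All 6 sinusoidal markers were counted in every library, with at least 28 counts each. Adjusted for the length of the exons, Clec4g stood at 27.4 CPM per kb in controls, the second highest of the 34 genes, and Oit3 at 12.2. Stab2, Stab1 and Gpr182 followed with 9.32, 7.52 and 7.48 CPM per kb, and Lyve1 was the least abundant of the 6 with 5.16. Vegfa had the highest level per kb, 40.3. The lowest belonged to Angpt2 at 0.189, followed by Angpt1 at 0.241.

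None of the 6 sinusoidal markers passed the test. Their log2 fold changes ran from -0.18 to 0.10 with a median of -0.09, with 2 above 0 and 4 below, and their adjusted p from 0.448 to 0.910. Summed over the 6, the level was 278 to 338 CPM in controls and 229 to 348 CPM in iTgMir483 livers, so that the iTgMir483 range enclosed that of the controls.

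Stab2, a scavenger receptor that clears hyaluronan, had 73.2, 79.9 and 91.1 CPM as the lowest, median and highest control value. In iTgMir483 livers these were 69.2, 89.8 and 99.2 CPM. The groups overlapped, with 3 iTgMir483 livers above the highest control and 1 below the lowest, and the log2 difference was 0.10 with a 95% interval from -0.11 to 0.30. Stab1, the related receptor, had 67.6, 76.3 and 87.6 CPM in controls and 55.0, 74.4 and 102 CPM in iTgMir483 livers. Its iTgMir483 values spread on both sides of the controls, and the interval of its log2 difference ran from -0.36 to 0.24. Clec4g, a C-type lectin, showed the same wider spread in iTgMir483 livers. It had 60.1 to 75.0 CPM in controls around a median of 68.1, and 39.2 to 86.6 CPM in iTgMir483 livers around 60.4, with 3 livers under the lowest control. Its log2 fold change was -0.18 with an interval from -0.51 to 0.15.

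Oit3, a protein with a zona pellucida domain found in these cells, and Gpr182, an atypical chemokine receptor, differed little. Oit3 had 29.2 to 45.2 CPM in controls and 28.7 to 39.0 in iTgMir483 livers, with a log2 difference of 0.02 and an interval from -0.22 to 0.27. For Gpr182 the ranges were 22.4 to 34.9 and 19.0 to 31.1 CPM, the difference was -0.13 and its interval ran from -0.42 to 0.16. Exons of Gpr182 overlap those of Zbtb39 on the other strand (up to 484 counts), and exons of Stab1 those of Nt5dc2 (up to 214 counts). Lyve1, a hyaluronan receptor shared with lymphatic vessels, was the most variable of the 6. It had 5.58 CPM in control replicate 1 and 2.04 CPM in iTgMir483 replicate 1, each the lowest of its group, against medians of 18.3 and 14.5 CPM. Replicate 2 was the next lowest in both groups, with 8.51 and 9.78 CPM. Its interval, from -1.05 to 0.73, was the widest of the 34 and took in a change of 1.5-fold in either direction.

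A further list of 10 sinusoidal genes, among them scavenger and clotting genes and transcription factors of these cells, had 0 changed members. Their median log2 fold change was -0.04, close to that of all genes. The 10 ran from -0.44 to 0.40, with 7 below 0 and 3 above, and 0 passed the adjusted p. With the replicate block, and without both replicate 1 libraries, 1 passed it.

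**Figure D2:**
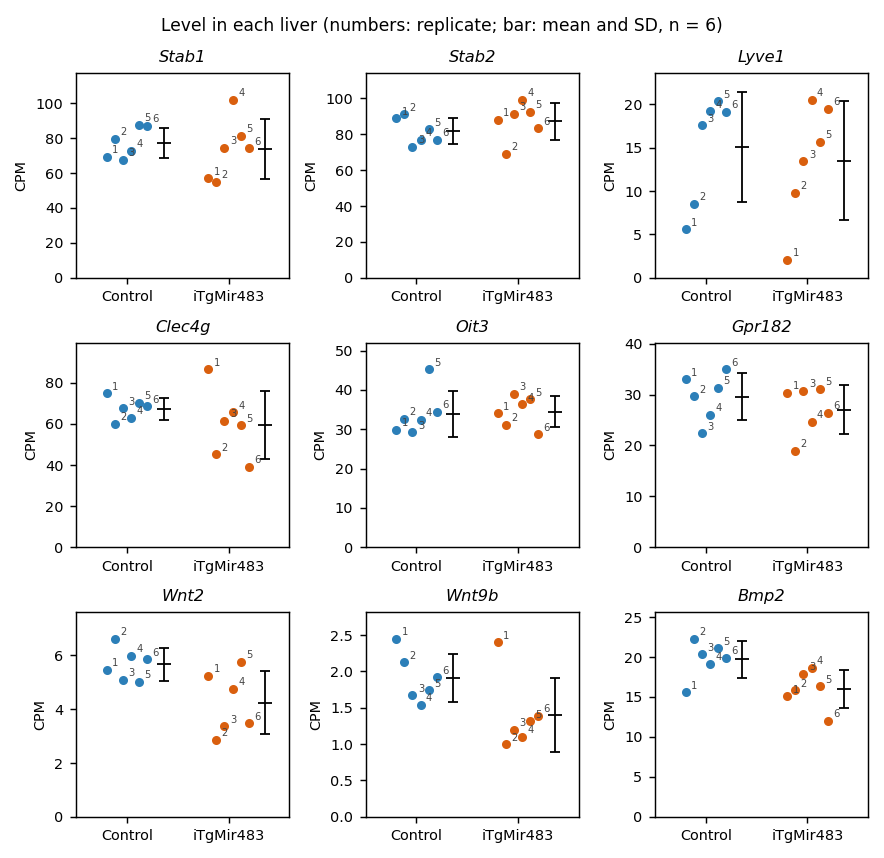
Level (CPM, y axis from 0) of the 6 sinusoidal markers and 3 angiocrine ligands in each of the 12 livers, numbered by replicate, with the mean and SD of each group of 6 as a black bar. The groups overlap in all 9 panels. Stab1 and Clec4g spread more widely in iTgMir483 livers, Lyve1 is lowest in replicate 1 of both groups, and 5 of 6 iTgMir483 livers lie below every control for Wnt9b.

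The 3 angiocrine ligands all had log2 fold changes below 0, with a median of -0.42, but 0 of 3 passed the test. Wnt2, a ligand of central vein and sinusoidal endothelium that maintains the pericentral programme of hepatocytes, had 5.02, 5.66 and 6.61 CPM as its lowest, median and highest control value. In iTgMir483 livers it had 2.85, 4.12 and 5.76 CPM. In 4 of the 6 iTgMir483 livers the level was below the lowest control, and the other two lay inside the control range. Its log2 fold change was -0.42 with SE 0.17, and an adjusted p of 0.110 by edgeR's quasi-likelihood test.

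Wnt9b, with a like role at the central vein, had 1.54, 1.83 and 2.45 CPM in controls and 0.999, 1.26 and 2.40 CPM in iTgMir483 livers. All iTgMir483 livers but replicate 1 were under the lowest control, and replicate 1 lay just under the highest. With SE 0.23, a log2 fold change of -0.44 had an adjusted p of 0.196. Without that single liver it was -0.66 with an adjusted p of 0.0334, past both thresholds, so the value was decided by 1 library. The counts behind Wnt9b were low, from 14 to 45 per library.

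Bmp2, which signals to hepatocytes to produce the iron hormone hepcidin, had 15.6, 20.1 and 22.3 CPM in controls and 12.0, 16.1 and 18.7 CPM in iTgMir483 livers. Of the iTgMir483 livers 2 lay below every control, the lowest of which was control replicate 1. All iTgMir483 livers lay below the other controls, which had at least 19.2 CPM. Its log2 fold change of -0.30, with SE 0.12, had an adjusted p of 0.0822. Without control replicate 1 it was -0.37 with an adjusted p of 0.0338, and without the replicate 1 libraries of both groups it did not pass.

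Among 8 target genes of Wnt signalling in hepatocytes, 1 was changed and lower (12.5%, against 2.73% of all genes). Glul, glutamine synthetase of the pericentral hepatocytes, fell from a mean of 1075 CPM in controls to 700.5 CPM, with a log2 fold change of -0.62, SE 0.14 and an adjusted p of 0.00974. The groups did not overlap, with 956 to 1216 CPM in controls and 565 to 952 CPM in iTgMir483 livers. The median of the 8 was 0.05, and without iTgMir483 replicate 4, the liver with the lowest summed level of these 8 genes, 0 of 8 were changed and 1 still passed the adjusted p.

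Of 10 genes of the pathway through ALK1 and the bone morphogenetic proteins, 1 was changed and higher and 1 changed and lower, where 8.41% and 2.73% of all genes were. Acvrl1, which encodes the receptor ALK1 of endothelial cells, had 1.37 to 4.26 CPM in controls and 5.07 to 9.23 CPM in iTgMir483 livers, with no overlap. Its log2 fold change was 1.01 with SE 0.23 and an adjusted p of 0.00863. Smad9, a transcription factor downstream of these receptors, had 5.94 to 25.5 CPM in controls and 5.75 to 10.4 CPM in iTgMir483 livers, with overlap. It was lower by a log2 fold change of -0.89, adjusted p 0.0283, and was not changed once both replicate 1 libraries, or iTgMir483 replicate 4 alone, were left out.

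The 9 genes of endothelium in general included 1 that passed the adjusted p, Pecam1, and 0 changed at the 1.5-fold threshold. Their median log2 fold change was 0.13, with 7 above 0 and 2 below, and 0.04 without iTgMir483 replicate 4. Pecam1, the adhesion molecule CD31 of endothelial junctions, had 23.9, 25.3 and 28.7 CPM as the lowest, median and highest control value. In iTgMir483 livers it had 27.8, 31.9 and 47.8 CPM. All but 1 of the iTgMir483 livers lay above the highest control, and replicate 4 was the highest by far. This gave a log2 fold change of 0.42, a fold of 1.34, with SE 0.12 and an adjusted p of 0.0239. Without control replicate 4 the adjusted p was 0.0552 and without control replicate 6 it was 0.0501. Leaving out iTgMir483 replicate 4 lowered the difference to 0.31, which still passed.

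Cdh5, the VE-cadherin of the same junctions, had 27.5, 30.3 and 35.3 CPM in controls and 31.3, 36.6 and 66.2 CPM in iTgMir483 livers. Replicate 4 again stood far above the others, whose highest value was 42.4 CPM. Its difference of 0.43 on the log2 scale, with SE 0.16, had an adjusted p of 0.0728 and did not pass. It fell to 0.24 without replicate 4.

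Of the remaining 7, Egfl7, a secreted factor of endothelial cells, had the largest difference, 0.28, from 18.3 to 25.7 CPM in controls to 20.3 to 33.9 CPM in iTgMir483 livers, with an adjusted p of 0.136. Its exons overlap those of Agpat2 on the other strand, a gene with up to 5898 counts. Esam, a junction molecule, stood at 0.24 with ranges of 12.5 to 19.2 and 10.7 to 28.5 CPM. Ramp2, the partner of the adrenomedullin receptor, was at 0.13, Robo4, a guidance receptor, at 0.09, and Mmrn2, a matrix glycoprotein of vessels, at 0.06. The 2 transcription factors of the list were below 0. Sox18 stood at -0.05 and Erg at -0.12, and the interval of Erg ran from -0.48 to 0.24. Without iTgMir483 replicate 4, Esam was at 0.09, Ramp2 at 0.03, Robo4 at 0.03 and Mmrn2 at 0.03, while Sox18 turned to 0.04. For all 7 the groups overlapped.

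Another 18 genes of endothelium in general, also listed with earlier results of these data known, had 2 changed members, both higher, and a median of 0.17. That is 11.1% of the 18, the same share as over all genes tested. Bcl6b, a transcriptional repressor of endothelial cells, had 1.67 to 4.41 CPM in controls and 3.86 to 10.7 CPM in iTgMir483 livers, with a log2 fold change of 1.19 and an adjusted p of 0.0112. Icam2, an adhesion molecule, had 2.29 to 3.69 and 4.35 to 5.35 CPM with no overlap, a log2 fold change of 0.62 and an adjusted p of 0.0127. Without iTgMir483 replicate 4, 1 of the 18 was changed.

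The capillarization markers Vwf, Emcn and Plvap were all above 0, with a median of 0.25, and 0 of 3 passed. Plvap, the diaphragm protein of fenestrated capillaries, was the most abundant, at 23.1 CPM per kb in controls. It had 42.4, 45.6 and 50.6 CPM as its lowest, median and highest control value, and 48.7, 51.1 and 59.9 CPM in iTgMir483 livers. The groups overlapped, with 3 iTgMir483 livers above the highest control and 3 inside the control range. Its log2 fold change was 0.21 with SE 0.083 and an adjusted p of 0.0890.

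Vwf, von Willebrand factor of the larger vessels, had 6.76, 10.05 and 12.7 CPM in controls and 9.96, 13.0 and 16.4 CPM in iTgMir483 livers, with a log2 fold change of 0.40, SE 0.18 and an adjusted p of 0.136. Emcn, a sialomucin of capillary and venous endothelium, was at 3.21 ± 0.725 CPM in controls and 3.77 ± 0.696 CPM in iTgMir483 livers (SD, n = 6), with a log2 fold change of 0.25 and an adjusted p of 0.359. For both genes the groups overlapped, with 3 and 1 iTgMir483 livers above every control.

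Because a shift from sinusoidal to capillary features would move these markers apart, the ratios of Plvap and of Vwf to Stab2 within a liver were compared with an exact permutation test, two-sided, which uses all 924 ways to split the livers and cannot go below p = 0.00216. The log2 ratio of Plvap to Stab2 was -0.83 ± 0.189 in controls and -0.71 ± 0.126 in iTgMir483 livers (SD, n = 6), a difference of 0.12 with an exact permutation p of 0.245. That of Vwf to Stab2 was -3.09 ± 0.300 and -2.76 ± 0.288, a difference of 0.34 with an exact p of 0.0671. Adjusted over the 3 ratios examined, the p-values were 0.245 and 0.175. Neither difference passed, and in both ratios the groups overlapped.

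Genes of basement membrane, capillary surface and sprouting tip cells were listed separately. Of 13 listed, 10 had enough counts, and 4 of these were changed, all of them higher, with a median of 0.49 over the 10. Apln, Aplnr and Esm1 were not tested, so the count says little of tip cells. Esm1 had 0.125 to 0.518 CPM in controls and 0.218 to 7.62 CPM in iTgMir483 livers. Of the 10, 8 were above 0 and 2 below, Aqp1 at -0.11 and Ly6a at -0.23, while Cav1 stood at 0.02. Over all genes tested 8.41% were changed and higher. Mcam (CD146, a junction and mural cell adhesion molecule) had 7.95 to 9.51 CPM in controls and 8.74 to 20.6 CPM in iTgMir483 livers, with a log2 fold change of 0.87 and an adjusted p of 0.00425. Cd34, the sialomucin that sinusoidal cells gain on capillarization, had 1.28 to 3.68 and 3.28 to 6.96 CPM, a log2 fold change of 1.20 and an adjusted p of 0.00491. The basement membrane genes Nid2 (nidogen, 0.96, adjusted p 0.0125) and Col4a1 (type IV collagen, 0.72, adjusted p 0.0301) completed the 4. All 4 overlapped between the groups. Without iTgMir483 replicate 4, 3 of 10 were changed, and without both replicate 1 libraries 6 of 11 were.

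Markers of other cell types were read in the same livers, since some of these genes are shared with them. For comparison, 8.41% of all genes tested were changed and higher, and 2.73% were changed and lower. Of 9 macrophage markers 8 were changed and higher, with a median of 1.09, and their summed level was 325 to 477 CPM in controls and 500 to 1475 CPM in iTgMir483 livers, highest in replicate 4, and none was at 0 in any library. Without replicate 4, 7 of 9 were changed and the median was 0.70. Of 8 stellate cell markers 0 were changed, at 380 to 464 and 418 to 519 CPM. However, 2 of the 8 passed the adjusted p and were higher, where 11.3% of all genes did. Their log2 fold changes had a median of 0.31, with 7 above 0, and 3 passed without both replicate 1 libraries. Of 3 tested smooth muscle markers 0 were changed, at 9.69 to 41.8 and 9.96 to 26.5 CPM. Of 5 bile duct markers 3 were changed and higher, at 20.9 to 46.1 and 60.7 to 89.1 CPM. The summed level of 6 hepatocyte markers was 116479 to 164606 CPM in controls and 55353 to 128142 CPM in iTgMir483 livers, lowest in replicate 4, with 1 of 6, Cps1, changed and lower. Of the 3 tested proliferation markers 1 was changed and higher, and 2 were without both replicate 1 libraries. Of the 3 tested lymphatic endothelial markers 0 were changed. The 5 adipocyte markers, each at 0 in at least 1 liver, summed to at most 2.34 CPM in any liver. What part these cells have in the endothelial values was not tested.

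The angiogenic ligands held both changed genes. Their median log2 fold change was 0.54, with 4 of 5 above 0. Angpt2, angiopoietin 2, a context-dependent antagonist of TIE2 that is stored and released by endothelial cells and loosens vessels for sprouting, is encoded on the minus strand at chr8:18690263-18741562 inside an intron of Mcph1. It had 0.488, 0.645 and 1.14 CPM as its lowest, median and highest control value. In iTgMir483 livers it had 1.02, 1.70 and 2.71 CPM. Every iTgMir483 liver but replicate 3 lay above the highest control, replicate 5, and replicate 3 lay just below it. The log2 fold change was 1.32, a fold of 2.503, with SE 0.29, a 95% interval from 0.71 to 1.94 and an adjusted p of 0.00669. The counts were low, from 7 to 36 per library, and the gene was changed in all alternatives that tested it.

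Dll4, the Notch ligand of tip cells and arteries (chr2:119325784-119335962, plus strand), had 3.83, 4.53 and 5.67 CPM in controls and 5.33, 6.63 and 9.21 CPM in iTgMir483 livers. Of the 6 iTgMir483 livers 4 lay above every control, and the other two were exceeded only by control replicate 6. On the log2 scale the change was 0.59, a fold of 1.501, with SE 0.16, an interval from 0.25 to 0.92 and an adjusted p of 0.0186. It stood only just past the fold threshold. The adjusted p passed in all alternatives, while the fold was under 1.5 with RLE, DESeq2, limma-voom and the replicate block, with no filter, and without 6 of the 12 libraries in turn.

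Angpt1, the activating ligand of TIE2 made mainly by mesenchymal cells, had 0.731, 1.26 and 1.67 CPM in controls and 1.10, 1.87 and 2.38 CPM in iTgMir483 livers. Of the iTgMir483 livers 4 lay above every control, and replicates 4 and 6 lay inside the control range. Its log2 fold change of 0.54 with SE 0.24 had an adjusted p of 0.129 and did not pass. The log2 ratio of Angpt2 to Angpt1 within a liver was -0.79 ± 0.635 in controls and -0.09 ± 0.720 in iTgMir483 livers (SD, n = 6). The difference of 0.70 had an exact permutation p of 0.117, or 0.175 adjusted over the 3 ratios, and 2 of 6 iTgMir483 livers lay above all controls. The groups overlapped, and both genes were at under 3 CPM in every liver.

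Vegfa, the main VEGF ligand and in liver a product largely of hepatocytes, did not pass the test. It had 152, 177 and 182 CPM as its lowest, median and highest control value and 142, 160 and 167 CPM in iTgMir483 livers. The groups overlapped through control replicate 3 alone, with 2 iTgMir483 livers below every control and none above. All iTgMir483 livers lay below the other controls, which had at least 169 CPM. The log2 fold change was -0.14, with a 95% interval from -0.31 to 0.04 and an adjusted p of 0.261, so an increase of 1.5-fold lay outside the interval. Vegfb, a ligand of VEGFR1, had 6.09 to 10.6 CPM in controls and 6.39 to 13.1 CPM in iTgMir483 livers, with a log2 fold change of 0.32 and an adjusted p of 0.277.

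**Figure D3:**
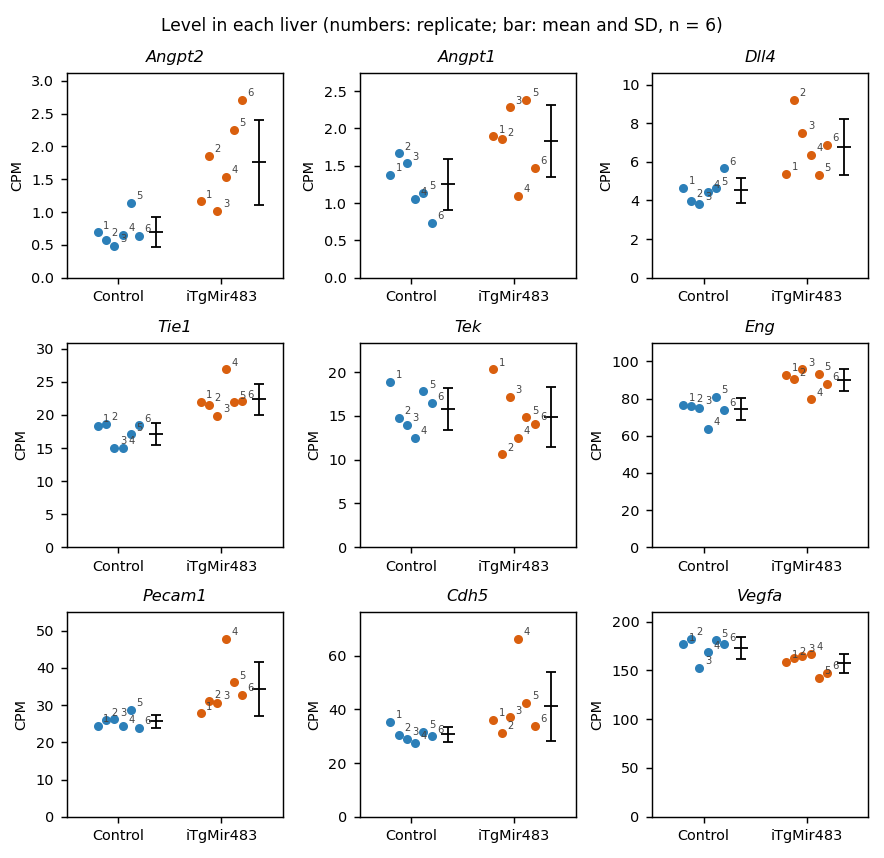
Level (CPM, y axis from 0) of 9 angiogenic and junction genes in each of the 12 livers, numbered by replicate, with the mean and SD of each group of 6 as a black bar. For Tie1 the iTgMir483 livers (19.9 to 26.9 CPM) all lie above the controls (15.0 to 18.6 CPM). For Angpt2, Dll4, Eng and Pecam1 most do, and for Tek the groups overlap widely. For Vegfa all controls but replicate 3 lie above every iTgMir483 liver. Replicate 4 is the highest iTgMir483 liver for Tie1, Pecam1 and Cdh5.

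Of the 8 angiogenic receptors, 2 passed the adjusted p, both higher and both below 1.5-fold, and the median of the 8 was 0.01, or -0.03 without iTgMir483 replicate 4. Tie1, an orphan receptor tyrosine kinase that pairs with TIE2 (chr4:118471191-118490061, minus strand), had 15.0, 17.7 and 18.6 CPM in controls and 19.9, 22.0 and 26.9 CPM in iTgMir483 livers. It was the only 1 of the 34 whose groups did not overlap, against 7.92% of all genes tested. The log2 fold change was 0.39, a fold of 1.31, with SE 0.096 and an adjusted p of 0.0127. In all 19 alternatives the adjusted p passed, from 0.00363 to 0.0352.

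Eng, endoglin, the co-receptor of ALK1 (chr2:32646595-32682669, plus strand), had 63.7, 75.6 and 80.9 CPM in controls and 79.6, 91.6 and 95.7 CPM in iTgMir483 livers. All iTgMir483 livers but replicate 4 lay above the highest control, and replicate 4 lay just below it. The log2 fold change was 0.28, a fold of 1.21, with SE 0.079 and an adjusted p of 0.0266. It did not pass with no filter, at 0.117, nor without control replicate 4 or 6 or iTgMir483 replicate 3 or 5, at up to 0.0726. Its exons overlap those of Fpgs on the other strand, a gene with up to 7686 counts, and the strand setting of the counting is not given in the sources used here.

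Tek, which encodes TIE2, the receptor of both angiopoietins, had 12.5, 15.6 and 18.9 CPM in controls and 10.6, 14.5 and 20.3 CPM in iTgMir483 livers. The iTgMir483 range enclosed that of the controls, and the log2 difference was -0.07 with an interval from -0.40 to 0.25. Kdr, the signalling VEGF receptor VEGFR2, had 49.2 to 67.2 CPM in controls and 42.4 to 64.6 CPM in iTgMir483 livers. Its log2 difference was -0.11 with an interval from -0.36 to 0.13, inside 1.5-fold both ways.

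Flt1, the decoy receptor VEGFR1, was at 0.05 with ranges of 14.6 to 19.6 and 10.5 to 21.4 CPM. Flt4, the VEGF-C receptor VEGFR3, was at 0.24 with 28.1 to 35.2 CPM in controls and 26.5 to 49.3 CPM in iTgMir483 livers. Of the iTgMir483 livers 4 lay above all controls and 2 below all controls, so that none fell inside the control range. Without iTgMir483 replicate 4 the log2 difference was 0.12 for Flt4 and -0.03 for Flt1.

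The co-receptors Nrp1 and Nrp2 bind VEGF and semaphorins. Nrp1 was at -0.03 with 35.5 to 77.2 and 33.8 to 73.2 CPM, and in both groups replicate 1 held the highest value. Nrp2 had 24.4, 48.1 and 54.6 CPM in controls and 26.5, 34.4 and 48.0 CPM in iTgMir483 livers. Control replicate 1 was far below the other controls, the lowest of which had 46.4 CPM. The log2 fold change was -0.36 with an adjusted p of 0.173. Without control replicate 1 it was -0.49 with an adjusted p of 0.0157, and without both replicate 1 libraries -0.51 with 0.0172, so this call too was decided by 1 library.

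A further list held 13 genes of VEGF signalling, hypoxia and other vessel growth and guidance signals. Of these, 11 were tested and 5 were changed, all higher, against 8.41% of all genes, with a median of 0.59. By sign 8 were above 0 and 3 below. Those below were Vegfd (-0.59, not passing) and the hypoxia-inducible factor genes Hif1a (-0.02) and Epas1 (-0.05). Egln3, a prolyl hydroxylase induced by hypoxia-inducible factors, had 13.7 to 21.6 CPM in controls and 25.9 to 31.8 CPM in iTgMir483 livers, with no overlap, a log2 fold change of 0.64 and an adjusted p of 0.0025. Pdgfb, the endothelial ligand that recruits mural cells, had 1.13 to 1.74 and 1.76 to 3.10 CPM, also with no overlap, and a log2 fold change of 0.79 with an adjusted p of 0.0122. The semaphorin receptor Plxnd1 (0.61, adjusted p 0.00663) and the growth factor receptor Fgfr1 (0.61, adjusted p 0.0134) were also higher. Without iTgMir483 replicate 4, 3 of 11 were changed.

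Of 8 genes of Notch and ephrin signalling, 7 were tested and 1 was changed and higher (14.3%, against 8.41% of all genes). Hey1, a Notch target in endothelium, had 0.183 to 0.627 CPM in controls and 0.627 to 1.25 CPM in iTgMir483 livers, with a log2 fold change of 1.23 and an adjusted p of 0.0127. At such levels few reads lay behind its values. The median of the 7 was 0.42.

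Across the 34 genes the livers did not deviate as a block. iTgMir483 replicate 4 held the highest value of all 12 livers for 12 of the 34 genes, and replicate 2 the lowest for 10. The median deviation from the control mean, on the log2(CPM + 1) scale, was 0.28 in iTgMir483 replicate 4, -0.07 in replicate 2 and from -0.01 to 0.19 in the other 4. Over the pan-endothelial genes the summed level was 152 to 234 CPM in iTgMir483 livers, highest in replicate 4, against 135 to 156 CPM in controls. Replicate 4 was also the liver with the highest macrophage and the lowest hepatocyte marker sums, and the part of that in its endothelial values was not tested. Without it, Angpt2 and Dll4 remained changed, Tie1, Eng and Pecam1 still passed the adjusted p, and the median of the 34 was 0.03. Without both replicate 1 libraries, 2 of 34 were changed and 6 passed the adjusted p, with Nrp2 the addition.

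**Figure D4:**
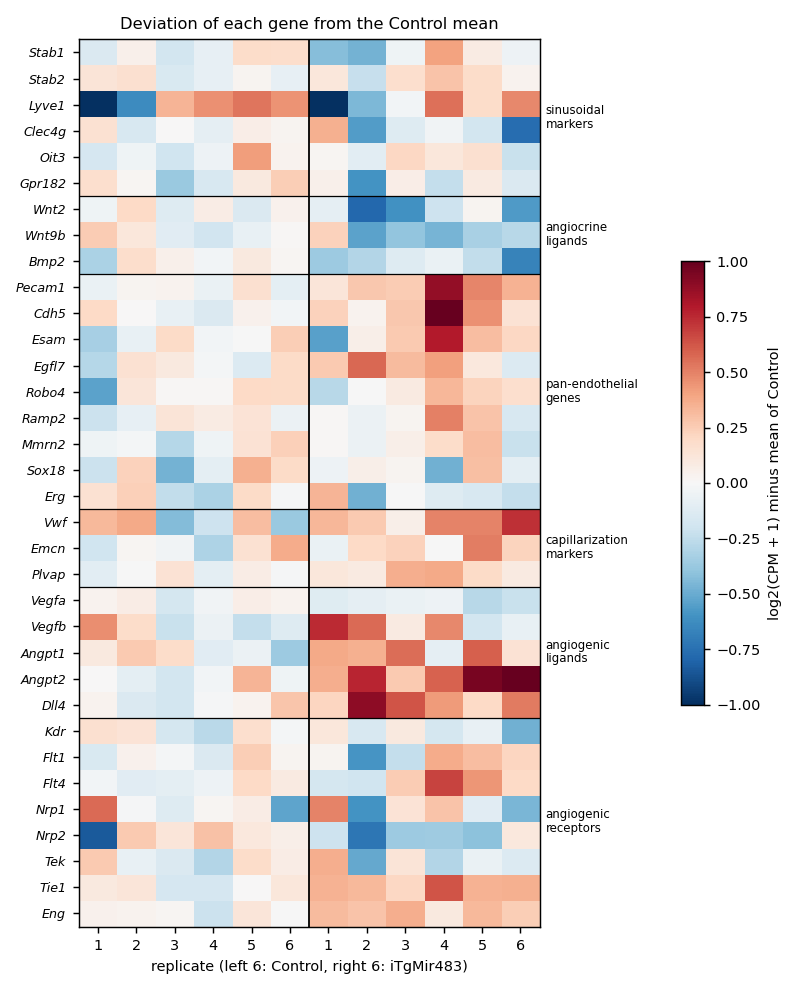
Deviation of each of the 34 genes (rows, grouped by role) in each liver (columns) from the control mean on the log2(CPM + 1) scale, red above and blue below, with colours saturating at the ends of the scale. Angpt2, Dll4, Tie1 and Eng are red across the iTgMir483 livers, the angiocrine ligands are mostly blue there, and replicate 4 is the reddest column among the pan-endothelial genes.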

How the data were processed

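Liver poly(A) RNA of 12 mice was measured by stranded RNA-seq. The authors deposited unnormalized counts of reads in each gene, made by aligning paired-end reads to GRCm38 with STAR, using Ensembl 100 genes. Labels and submitters' notes gave groups, replicate numbers and 1 sequencing pool; rows naming no gene and columns of no sample numbered 0. Symbols, exon lengths and UTRs came from GENCODE M21 (55141 of 55401 identifiers had a symbol). Pairs of libraries differed beyond sampling noise (smallest chi-square per gene 14.3), so each is 1 replicate. Genes kept by filterByExpr were compared with edgeR 4.0.16 (quasi-likelihood F-test, TMM, no covariates, with limma 3.58.1 and R 4.3.3), a design taken from the study's methods. Its p-values set the difference between the groups against the spread between these mice. The script was tested on simulated data. The 3 ratios are differences of log2 CPM within a liver, with a prior count of 1.

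Members and lists were chosen with earlier results of these data known. The study named angiogenesis from genes changed in these same livers, so the choice is not independent evidence. All 34 genes are named. Of the further lists, changed genes are given in order of adjusted p, at most 4 a list, with a few others that were not changed. Markers of other cells are given as counts and sums. Alternatives were RLE size factors, at least 10 counts in every sample, no filter, DESeq2 1.42.0, limma-voom, a replicate block, no fold threshold, and leaving out libraries. Same-numbered livers correlated at 0.015 to 0.49, with 4 of 6 pairs at or under 0.1, so the numbers were not taken to pair the mice.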

Additional observations from a re-analysis of the deposited data

Results flagged for a closer look

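Single livers stood apart from the others of their group for 7 of the 74 sets of 6 values examined, each a gene or ratio in a group. Such a set was picked out when the gap of its highest or lowest liver, divided by the whole range, was above Dixon's critical value for 6 samples. Chance alone picks out about 1 in 20, or 3.7 of 74.

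For Cdh5 replicate 4 had 66.2 CPM against 31.3 to 42.4 in the other livers (ratio 0.684), and for Tie1 it had 26.9 CPM against 19.9 to 22.1 (0.687). Control replicate 1 was the lowest control for Robo4, with 12.9 CPM against 19.3 to 22.2 (0.691), and for Nrp2, with 24.4 CPM against 46.4 to 54.6 (0.727). Control replicate 5 was the highest for Oit3, with 45.2 CPM against 29.2 to 34.5 (0.671), and for Angpt2, with 1.14 CPM against 0.488 to 0.690 (0.689). For Wnt9b iTgMir483 replicate 1 had 2.40 CPM against 0.999 to 1.39 in the other livers (0.719). Of these 7, the liver decided whether the gene passed the test for Nrp2 and Wnt9b.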

How the results depend on the processing

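Angpt2 was changed in all 18 alternative analyses that tested it, with adjusted p from 0.000765 to 0.0202, and Tie1 passed the adjusted p in all 19. The number of the 34 genes that were changed, all of them higher, was 2 in the analysis reported and 1 with RLE size factors, with at least 10 counts in every sample, with no filter, with DESeq2, with limma-voom and with the replicate block. The gene lost was Dll4, whose fold dropped under 1.5, except under the count minimum, which left out Angpt2. The replicate block changed no other call among the 34, and with it 1530 of all genes were changed against 1470 without. With no fold threshold 5 were changed, and 2457 of all genes. With 1 library left out in turn, 1 to 3 were changed, of them 1 to 2 higher and 0 to 1 lower, and over all genes 1190 to 1653. The median of the angiogenic ligands was 0.33 with the count minimum, which drops Angpt2 and Angpt1. Eng did not pass with no filter (adjusted p 0.117). Cdh5 passed the adjusted p only without iTgMir483 replicate 2 (0.0426).

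Leaving out libraries moved the ratio differences from 0.51 to 0.90 for Angpt2 to Angpt1, from 0.068 to 0.176 for Plvap to Stab2 and from 0.26 to 0.43 for Vwf to Stab2. The exact p was 0.0476 for Angpt2 to Angpt1 without iTgMir483 replicate 3, and 0.0390 and 0.0303 for Vwf to Stab2 without control replicate 5 and iTgMir483 replicate 3.

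The sign turned 19 times, in 9 genes whose differences were near 0. With 1 library left out in turn, the log2 fold change ran from -0.0173 to 0.120 for Oit3, from -0.152 to 0.107 for Nrp1, from -0.153 to 0.0426 for Sox18, from -0.176 to 0.0101 for Stab1, from -0.0271 to 0.157 for Flt1, from -0.331 to 0.0664 for Lyve1, from -0.0095 to 0.153 for Robo4, from -0.181 to 0.0068 for Tek and from -0.0038 to 0.109 for Mmrn2. Without both replicate 1 libraries Oit3 was at -0.0079. The cause was not tested.

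Among the 34 genes, depth limits Angpt2, Angpt1 and Wnt9b most, with 7 to 45 counts per library.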
